A study of Arabidopsis thaliana with 12 samples.

Results

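The genes described here are 10 Arabidopsis thaliana loci of the 3-ketoacyl-CoA synthase (KCS) family, among 34262 features counted in every library. They are KCS1 (AT1G01120), KCS2 (AT1G04220), KCS4 (AT1G19440), KCS5 (AT1G25450), KCS6 (AT1G68530), KCS8 (AT2G15090), KCS9 (AT2G16280), KCS10 (AT2G26250), KCS17 (AT4G34510) and KCS20 (AT5G43760). They were taken from the count tables by locus. The list was chosen by locus with the measured levels of these genes in the 4 groups already known, and it records no threshold, so their differences between groups are a description. No p-value of a single gene of the list is printed, and whether a gene was called is given as part of that description, not as a test of the list. The other 11 KCS genes of the genome were kept apart as a comparison, 21 in all. Of the 10 genes, 10 passed the filter on low counts, and of the 11 others 6 did.

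Seedlings 6 days old on MS medium received Zeocin, a DNA-breaking drug of the bleomycin family, at 20 µM for 6 h, or a mock treatment, and their total RNA was sequenced. The seedlings were a pot1b mutant or WT (Col-0). POT1b is a relative of a telomere protein, and the allele is not given in the labels. There were 4 groups of 3 libraries: pot1b Zeocin, WT Zeocin, pot1b mock and WT mock. The libraries held between 9607269 and 24587168 counts, and nuclear genes took 3961261 to 10490315 of them. Levels are CPM, counts scaled to a common library size with TMM factors, given for replicates 1, 2 and 3 in that order. A gene is said to be called where edgeR's adjusted p over all tested genes was under 0.05. A floor of 3 counts corresponds to 0.122 to 0.312 CPM by the raw library totals, without TMM factors. Floors and the exact interval of a count ratio cover counting error only. Intervals of log2 differences come from edgeR's SE, which also includes the spread between libraries.

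The mutated gene itself, POT1B (AT5G06310), lay at 0.700 to 1.66 CPM in 4 of the 6 pot1b libraries, against 2.95 to 5.35 CPM in the 6 WT libraries. Replicate 3 of pot1b stood apart at 4.21 CPM under Zeocin and 2.82 CPM under mock. These 2 libraries are therefore labelled pot1b on the submitters' word, and calls of the 10 genes that change without them are given both ways.

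KCS enzymes are the condensing enzymes of the fatty acid elongase in the endoplasmic reticulum, where each round adds a pair of carbons to an acyl-CoA chain. The other steps are run by the ketoacyl-CoA reductase KCR1, the dehydratase PAS2 and the enoyl-CoA reductase CER10, which serve all KCS enzymes alike. The very-long-chain products go into the wax of the shoot surface, the suberin of roots, the long acyl chains of sphingolipids and seed oils, and which KCS acts sets the chain length in each.

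The 10 genes spanned a wide range of levels, compared here as CPM per kilobase of exon. Whole seedlings were measured, so that fewer cells of a type and less RNA per cell cannot be told apart in any of these levels. In WT mock, KCS10 (FIDDLEHEAD, which keeps young organs from fusing at their epidermis) was highest at 60.1 ± 0.368 and KCS6 (CER6, the main condensing enzyme of wax synthesis) was next at 53.4 ± 0.621 CPM per kilobase (SD, n = 3). KCS12, outside the list, followed at 48.0, then KCS1 at 29.3, KCS8 at 19.2 and KCS20 at 9.81. KCS20 overlapped in range with KCS9 at 8.93, and KCS5 at 7.20 overlapped with its neighbour KCS11. KCS2 at 0.263 and KCS17 at 0.0204 were the lowest of the 10. In pot1b mock the ranges of KCS10 (59.3 CPM per kilobase) and KCS6 (58.8) overlapped, as did those of KCS12 (44.3) and KCS1 (43.7). In pot1b Zeocin KCS1, at 46.6, overlapped with KCS6 at 45.3, whereas in WT Zeocin KCS6 at 46.1 and KCS1 at 30.9 did not overlap and KCS12 at 41.8 lay between them. KCS17 stood at 3.70 CPM per kilobase in pot1b Zeocin and 3.19 in WT Zeocin, in ranges that overlapped those of KCS4 in pot1b and of KCS3 in WT.

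**Figure D1:**
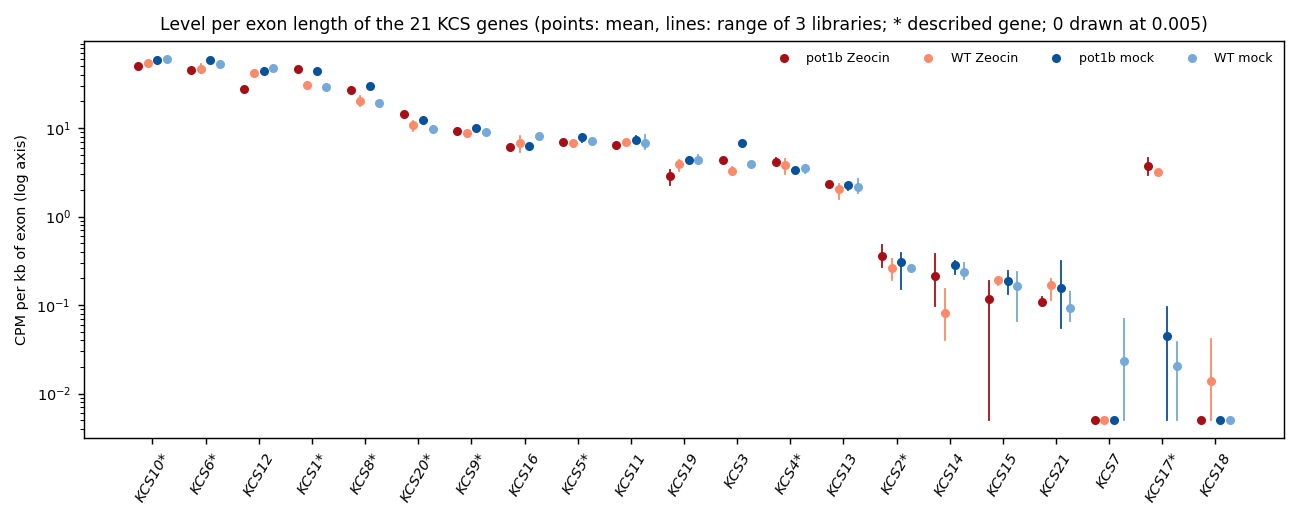
Levels of all 21 KCS genes in the 4 groups, as CPM per kilobase of exon on a log axis. Points are means and lines the range of 3 libraries, an asterisk marks the 10 described genes, and a value of 0 is drawn at 0.005. KCS17 lies at 3.70 and 3.19 in the Zeocin groups and below 0.1 in both mock groups.

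Of the 16 tested KCS genes, KCS17 had the largest Zeocin change in both genotypes. KCS17 had 6.03, 9.54 and 7.44 CPM in pot1b Zeocin, and 6.23, 6.58 and 7.01 CPM in WT Zeocin. Under mock it had 0.197, 0.0781 and 0 CPM in pot1b and 0.0793, 0 and 0.0475 CPM in WT. All 6 Zeocin libraries lay far above all 6 mock libraries. The counts behind these levels were 87, 109 and 99 in pot1b Zeocin and 91, 117 and 131 in WT Zeocin. The mock libraries of pot1b held 4, 1 and 0 counts and those of WT held 2, 0 and 1. The ratio of Zeocin to mock, from counts summed over each group and scaled by library size, was 70.7 in pot1b (exact 95% interval 29.96 to 219) and 123 in WT (41.9 to 601). The fitted log2 change was 6.06 (SE 0.35) in pot1b and 6.75 (SE 0.38) in WT, values that depend on the prior count because the mock counts are so few. KCS17 passed the filter only through its Zeocin libraries. A rise in at least 1 genotype was therefore fixed by the filter, and its Zeocin changes are a description. Between genotypes KCS17 was not called, at a log2 difference of 0.20 (SE 0.18, 95% interval -0.142 to 0.544) for pot1b against WT under Zeocin. The interaction subtracts the WT response to Zeocin from the response of pot1b. It was -0.69 for KCS17, with a wide 95% interval of -2.48 to 1.101, and turned to 0.63 without replicate 1 of pot1b mock, which held 4 of the 5 counts of its group.

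KCS17 lies on chromosome 4 next to KCS18 (FAE1, the KCS of seed oil), which starts 442 bp downstream on the same strand. KCS18 had 1 count over all 12 libraries together. The bases just upstream of the start of KCS17 are shown because it is the gene of the 10 that was called with Zeocin in both genotypes. They are chr4:16491442-16491691 of TAIR10.1, on the plus strand, from RefSeq, printed 5′ to 3′ and ending at the base before the annotated start. Capitals mark matches to 2 motifs searched on both strands. One is CTT and AAG with 7 free bases between them, of the type bound by the DNA damage regulator SOG1, which reads alike on both strands. The other is TAACTA, of the type bound by the wax regulator MYB96, whose reverse complement is TAGTTA.
KCS17: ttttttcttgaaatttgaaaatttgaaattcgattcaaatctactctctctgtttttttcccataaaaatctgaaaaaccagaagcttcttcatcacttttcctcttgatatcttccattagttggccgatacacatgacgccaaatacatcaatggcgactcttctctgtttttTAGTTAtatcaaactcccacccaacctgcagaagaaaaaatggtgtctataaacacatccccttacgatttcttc
The window of KCS17 holds the MYB96-type letters once, as TAGTTA, 75 bases before the start, and no SOG1-type letters. The MYB96-type letters occur in the windows of 3 of the 10 genes (KCS6, KCS8 and KCS17) and of 20.55% of 27443 protein-coding genes. The SOG1-type letters occur in 1 of the 10, KCS4, 188 bases before its start, and in 9.71% of the same windows. The 2 motifs overlap in none of the 10 windows. A match of letters is a description of the sequence and shows no binding.

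Apart from KCS17, the log2 changes of the 10 genes with Zeocin lay between -0.38 and 0.30 in pot1b and between -0.21 and 0.12 in WT. In pot1b 3 of 10 were called, KCS17 higher and KCS6 and KCS10 lower, against 6.70% of all 19596 tested genes in either direction, 3.70% higher and 3.00% lower. In WT 1 of 10 was called, KCS17, against 5.99% in either direction and 3.34% higher. Since the list was chosen with these contrasts known, nothing is read from the counts. The median log2 change of the 10 was -0.02 in pot1b and 0.02 in WT, beside 0.00 for all genes in both.

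KCS6 had 120, 126 and 110 CPM in pot1b Zeocin and 151, 156 and 154 CPM in pot1b mock. The Zeocin libraries all lay below the mock libraries, at a log2 change of -0.38 (SE 0.08). In WT, KCS6 had 138, 113 and 111 CPM with Zeocin and 140, 141 and 138 CPM with mock, a log2 change of -0.21 (SE 0.08) that was not called. Replicate 1 of WT Zeocin decided this: it lay within the mock range, and without it the log2 change was -0.31 and KCS6 was called in WT too. Without replicate 3 of pot1b in both treatments, the change in pot1b was -0.33 and was not called. The interaction for KCS6 was -0.16 (SE 0.12) and not called, so the 2 genotypes were not shown to differ in it.

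KCS10 had 114, 111 and 113 CPM in pot1b Zeocin and 136, 136 and 130 CPM in pot1b mock, with no overlap and a log2 change of -0.25 (SE 0.07). In WT it had 117, 129 and 121 CPM with Zeocin and 136, 135 and 136 CPM with mock. These ranges did not overlap either, but the change of -0.15 (SE 0.07) was not called. The call in pot1b was lost in 8 of the alternatives. In 7 of them a single library was left out and the log2 change lay between -0.27 and -0.24, and the other left out both replicate 3 libraries of pot1b, at -0.28. Wax-related KCS5 (CER60, a close relative of KCS6) and KCS9, which lengthens chains for suberin, wax and sphingolipids, were called in no contrast. KCS5 ranged from 13.7 to 17.8 CPM and KCS9 from 18.2 to 23.6 CPM over the 12 libraries.

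**Figure D2:**
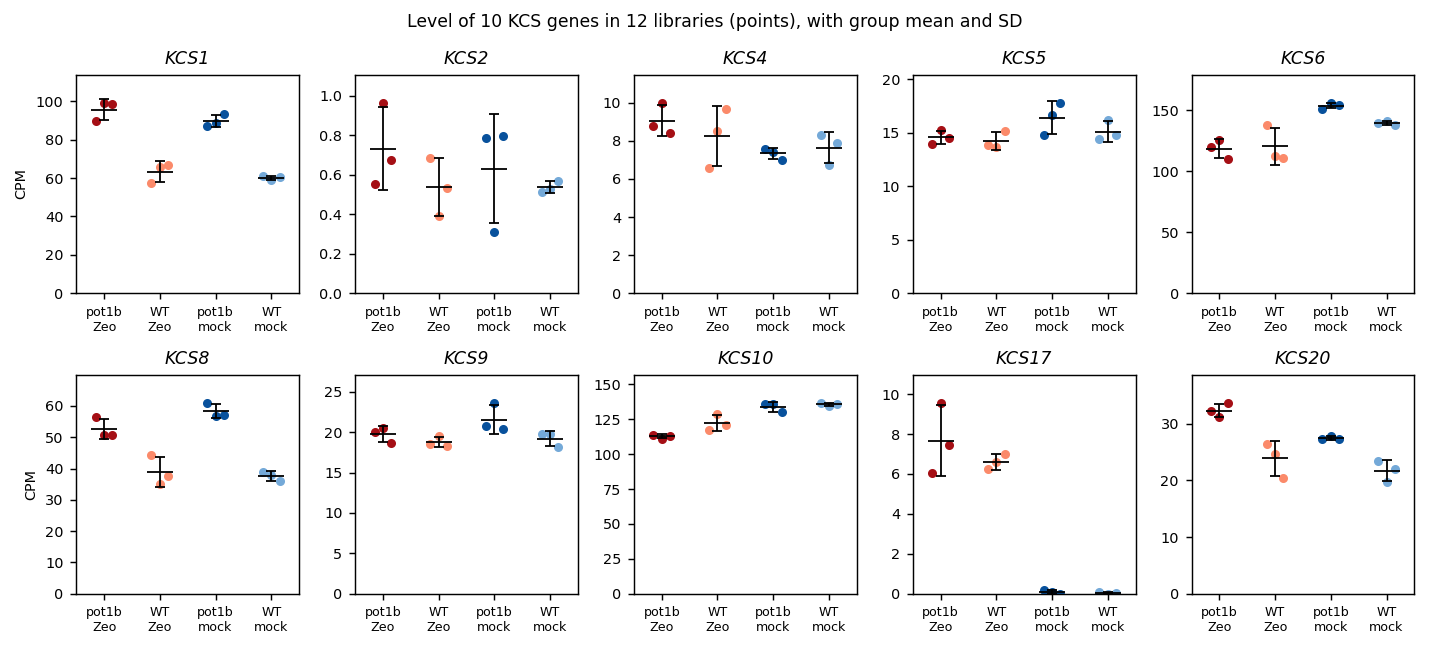
CPM of each of the 10 KCS genes in each library, by group, with a horizontal bar at the group mean and whiskers of 1 SD (n = 3). KCS17 is seen with Zeocin in both genotypes, KCS1, KCS8 and KCS20 are higher in both pot1b groups than in the WT group of the same treatment, and KCS6 and KCS10 are lower in pot1b Zeocin than in pot1b mock.

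KCS1, KCS8 and KCS20 were the genes of the 10 called between genotypes. Without being called, KCS6 (0.14) and KCS9 (0.17) under mock and KCS10 (-0.12) under Zeocin also had pot1b and WT libraries that did not overlap. Under mock 3 of 10 were called, all higher in pot1b, against 13.1% of all genes called in either direction and 7.25% called higher. Under Zeocin the same 3 were called, all higher, against 11.1% in either direction and 6.55% higher. The median log2 difference of the 10 genes between pot1b and WT was 0.16 under Zeocin and 0.22 under mock, beside 0.01 for all genes in both.

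KCS1, a broadly acting member whose loss thins the wax layer, had 89.6, 99.0 and 98.3 CPM in pot1b Zeocin and 57.2, 65.9 and 66.8 CPM in WT Zeocin. Under mock it had 87.0, 88.5 and 93.2 CPM in pot1b and 61.2, 59.1 and 60.4 CPM in WT. Every pot1b library lay above every WT library. The log2 difference was 0.59 (SE 0.08) under Zeocin and 0.57 (SE 0.08) under mock, both called. The difference of KCS1 between Zeocin and mock was 0.09 (SE 0.07) in pot1b and 0.07 (SE 0.08) in WT, neither called, and the interaction was 0.02 with a 95% interval of -0.187 to 0.230.

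KCS8 had 56.4, 50.8 and 50.6 CPM in pot1b Zeocin and 44.4, 35.02 and 37.6 CPM in WT Zeocin. Under mock it had 60.8, 56.9 and 57.2 CPM in pot1b and 38.8, 38.0 and 35.9 CPM in WT. As with KCS1, the 6 pot1b libraries lay above all 6 WT libraries. The log2 difference was 0.43 (SE 0.08) under Zeocin and 0.64 (SE 0.08) under mock, both called, and the interaction of -0.20 (SE 0.12) was not.

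KCS20 acts with KCS2 in root suberin and shoot wax. It had 32.2, 31.2 and 33.6 CPM in pot1b Zeocin and 26.5, 24.7 and 20.4 CPM in WT Zeocin. Under mock it had 27.3, 27.9 and 27.3 CPM in pot1b and 23.4, 19.8 and 22.1 CPM in WT. The groups did not overlap within either treatment, and the log2 difference was 0.44 (SE 0.09) under Zeocin and 0.33 (SE 0.09) under mock. The call under mock was lost in 6 of the alternatives, 5 with a single mock library left out and 1 without both replicate 3 libraries of pot1b, where the difference was 0.34. Between Zeocin and mock KCS20 differed by 0.23 (SE 0.09) in pot1b, where the 3 Zeocin libraries lay above the 3 mock libraries, and by 0.12 (SE 0.09) in WT, neither called. In a fit of the groups compared alone, the change in pot1b was 0.235 and was called.

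The windows upstream of these 3 genes are printed because they moved together between genotypes. They are chr1:59216-59465 (minus strand) for KCS1, chr2:6541916-6542165 (plus strand) for KCS8 and chr5:17585273-17585522 (plus strand) for KCS20, all of TAIR10.1 from RefSeq, with the same 2 motifs in capitals.
KCS1: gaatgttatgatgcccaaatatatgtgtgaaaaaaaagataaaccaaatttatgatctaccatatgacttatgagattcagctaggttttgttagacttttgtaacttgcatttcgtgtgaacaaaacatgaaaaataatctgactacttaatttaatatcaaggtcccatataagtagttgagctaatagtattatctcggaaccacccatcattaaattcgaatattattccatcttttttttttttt
KCS8: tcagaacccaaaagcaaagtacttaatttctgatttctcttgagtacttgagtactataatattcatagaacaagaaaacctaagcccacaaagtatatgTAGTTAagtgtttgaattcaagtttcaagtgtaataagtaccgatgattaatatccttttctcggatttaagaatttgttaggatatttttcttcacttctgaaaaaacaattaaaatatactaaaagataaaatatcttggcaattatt
KCS20: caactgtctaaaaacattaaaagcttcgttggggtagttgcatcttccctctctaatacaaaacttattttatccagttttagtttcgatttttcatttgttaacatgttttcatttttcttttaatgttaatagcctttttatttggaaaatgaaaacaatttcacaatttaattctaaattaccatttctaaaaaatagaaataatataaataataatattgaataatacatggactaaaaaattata
Of the 3, KCS8 holds the MYB96-type letters, once and 150 bases before its start. KCS1 and KCS20 hold neither motif in this window.

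KCS2, the partner of KCS20, was barely read. It had 4 to 16 counts per library and 0.554, 0.963 and 0.676 CPM in pot1b Zeocin and 0.685, 0.394 and 0.535 CPM in WT Zeocin. Under mock it had 0.788, 0.312 and 0.795 CPM in pot1b and 0.515, 0.526 and 0.570 CPM in WT. The 4 groups overlapped, and KCS2 was called in no contrast. A noncoding gene on the other strand, AT1G04247, overlaps KCS2 over 2302 bp and had 2 to 10 counts per library, and reads of the pair cannot be told apart if strand was not used in counting. The coding sequences of KCS2 and KCS20 are 84.11% identical. Their exon sequences share 4 windows of 50 bases, taken from every start base, so that these windows may overlap. KCS4, at 6.57 to 9.98 CPM, was called in no contrast. Its values of 8.80, 9.98 and 8.42 CPM in pot1b Zeocin lay above 7.59, 7.42 and 7.01 CPM in pot1b mock, a log2 change of 0.30 (SE 0.14).

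No KCS gene of the 10 had a Zeocin effect that was called different between the genotypes. The interaction was called for 0 of the 10 by edgeR, against 0.750% of all genes, with 0 at an unadjusted p under 0.05 and 0 by DESeq2 and by limma-voom. At so low a share, 0 of 10 does not set these genes apart from all genes. The comparisons share libraries, so their values for a gene are not independent: Zeocin in pot1b and pot1b under mock both use the pot1b mock libraries.

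**Figure D3:**
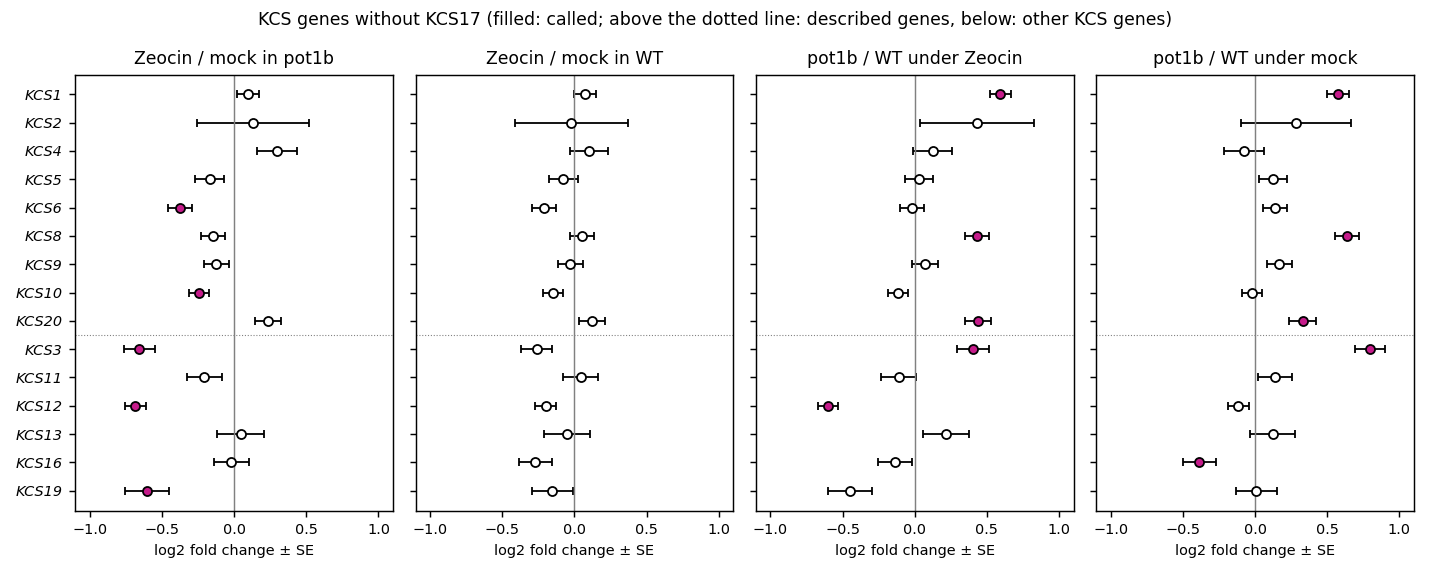
Log2 change of the KCS genes that passed the filter in 4 contrasts, with whiskers of 1 SE and filled points for called genes. The described genes stand above the dotted line and the other KCS genes below it, and KCS17 is left out because its Zeocin changes of 6.06 and 6.75 lie beyond the axis. KCS1, KCS8 and KCS20 lie to the positive side in both genotype contrasts.

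Over the 12 libraries, the levels of KCS1 went with those of KCS8 (Pearson r = 0.832 on log2 CPM) and of KCS20 (r = 0.815), and KCS8 with KCS20 at r = 0.756. These libraries share the 4 group means, so the values describe the group differences above. KCS6 and KCS10 had r = 0.651. Of all 19595 other tested genes, NAC103, a transcription factor gene, and SYN2, a cohesin subunit gene, were most like KCS17, at r = 0.995 and 0.994. The genes most like KCS1 were AT1G63840 (r = 0.992) and MSS1 (0.978), those most like KCS8 were WRKY18 (0.981) and AT2G44380 (0.980), and those most like KCS20 were AT1G74360 (0.951) and GolS3 (0.947). KCS6 was closest to AT1G09310 (0.965) and AT1G14890 (0.951), and KCS10 to ALDH2B4 (0.958) and PCK1 (0.955).

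Among the other KCS genes, KCS12 and KCS3 changed as much as any of the 10 except KCS17. KCS12 had 65.1, 72.1 and 65.8 CPM in pot1b Zeocin, against 105, 105 and 116 CPM in pot1b mock, and it fell by 0.68 on the log2 scale (SE 0.07, edgeR adjusted p = 4.41e-07). It lay at 102, 103 and 103 CPM in WT Zeocin and was lower in pot1b under Zeocin (-0.60, SE 0.07, edgeR adjusted p = 5.38e-06). KCS3, known to hold back KCS6, averaged 14.3 ± 0.737 CPM in pot1b mock and 8.17 ± 0.147 CPM in WT mock (n = 3 each, 0.80, SE 0.10, edgeR adjusted p = 1.09e-05). It fell with Zeocin in pot1b (-0.66, SE 0.11, edgeR adjusted p = 1.72e-04) and was higher in pot1b under Zeocin as well (0.40, SE 0.11, edgeR adjusted p = 0.0216), a call lost in 7 of the alternatives. KCS19 fell with Zeocin in pot1b (-0.61, edgeR adjusted p = 0.0141), and KCS16, which extends the longest wax chains, was lower in pot1b under mock (-0.39, edgeR adjusted p = 0.0274). With Zeocin in WT, edgeR and DESeq2 called 0 of the 6 tested genes, and edgeR's unadjusted p was under 0.05 for 3 of them. The call of KCS16 was lost in 7 of the alternatives, among them each mock library left out in turn, and that of KCS19 in 3. Without both replicate 3 libraries of pot1b, the calls of KCS19, of KCS16 and of KCS3 under Zeocin were lost. KCS13 and KCS14, 98.99% identical in coding sequence, are uncertain because their reads may be split or lost.

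The elongase partners changed with genotype in part. Under mock 2 of 7 tested partners were higher in pot1b, KCR1 (0.43, SE 0.09, edgeR adjusted p = 0.00133) and CER10 (0.36, SE 0.10, edgeR adjusted p = 0.0172), against 7.25% of all genes called higher, at a list median of 0.12 against 0.01 for all genes. KCR1 averaged 27.9 ± 0.240 CPM in pot1b mock and 20.7 ± 0.771 CPM in WT mock (n = 3 each). With Zeocin KCR1 fell in pot1b (-0.35, edgeR adjusted p = 0.0134). CER2, which lets KCS6 reach its longest products, fell with Zeocin in pot1b (-0.34, edgeR adjusted p = 0.0174) and in WT (-0.38, edgeR adjusted p = 0.00903), where it was the 1 partner called, and CER2 overlaps another gene. The call of CER10 under mock was lost in 3 of the alternatives, each with a single mock library left out. With Zeocin, the calls of KCR1 and CER2 in pot1b were lost in 4 each, and that of CER2 in WT in 1. The calls of KCR1 and CER2 with Zeocin in pot1b were also lost without both replicate 3 libraries of pot1b, which is 1 of those 4.

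Of 12 genes of wax synthesis and export 8 were tested, and under mock 6 of them were higher in pot1b and 0 lower, against 7.25% of all genes called higher and 13.1% in either direction, at a median log2 difference of 0.60 against 0.01 for all genes. LACS2, which activates fatty acids for the cuticle, averaged 21.8 ± 1.33 CPM in pot1b mock and 10.9 ± 0.864 CPM in WT mock (n = 3 each, 1.02, SE 0.10, edgeR adjusted p = 2.35e-07). CER3, of alkane formation, averaged 38.0 ± 1.26 CPM in pot1b mock and 22.7 ± 0.240 CPM in WT mock (0.74, SE 0.07, edgeR adjusted p = 2.91e-07). The export genes LTPG1 (0.88), LTPG2 (0.80), ABCG12 (0.45) and ABCG11 (0.27) were the others. With Zeocin, 4 of the 8 fell in pot1b, CER3 (-0.56), LTPG1 (-0.62), LACS2 (-0.59) and ABCG11 (-0.31), and LACS1 rose (0.37), against 3.00% of all genes called lower and 3.70% higher. With Zeocin in WT, all 3 tools (edgeR, DESeq2 and limma-voom) called 0 of the 8, and edgeR's unadjusted p was under 0.05 for 1. LACS2, LTPG2, LTPG1, ABCG12 and LACS1 were higher in pot1b under Zeocin (0.59, 0.57, 0.51, 0.29 and 0.31). The call of ABCG11 under mock was lost in 7 of the alternatives and that of LACS1 under Zeocin in 8. Without both replicate 3 libraries of pot1b, the calls of ABCG11 in both contrasts and those of ABCG12 and LACS1 for pot1b under Zeocin were lost. LTPG1 and ABCG11 overlap other genes and are uncertain if strand was not used in counting.

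**Figure D4:**
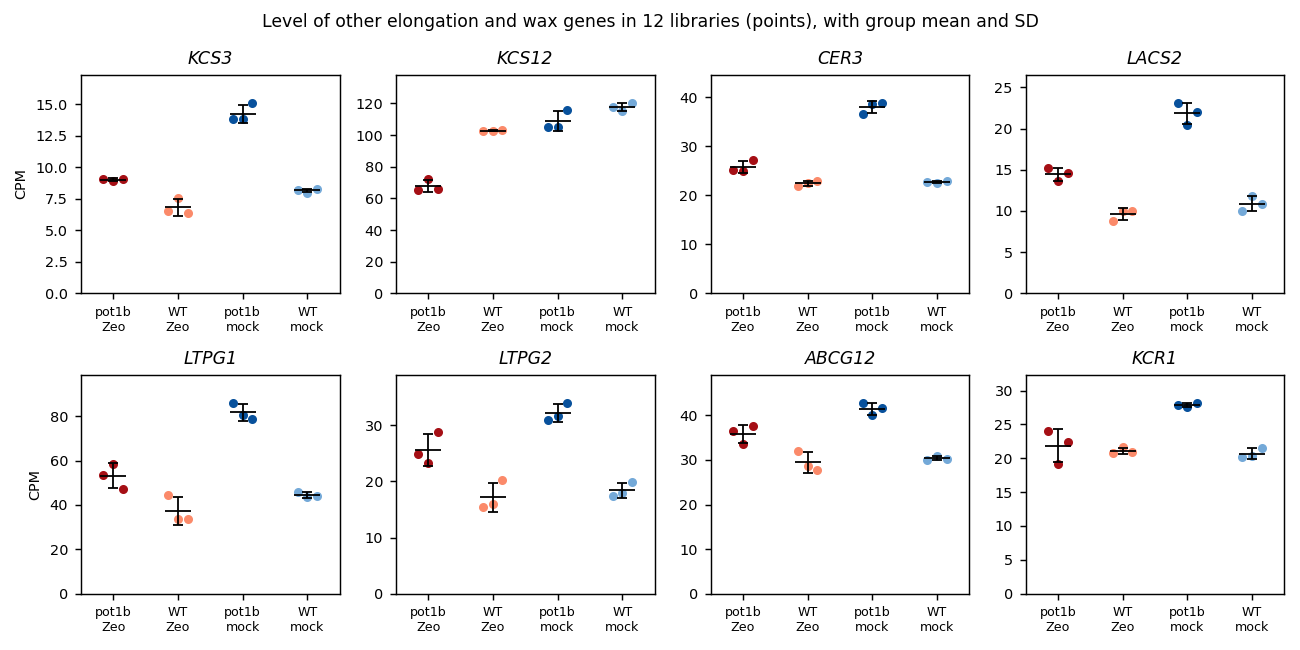
CPM per library of KCS3, KCS12 and 6 wax and elongase genes by group, with a horizontal bar at the group mean and whiskers of 1 SD (n = 3). CER3, LACS2 and LTPG1 are higher in pot1b mock than in WT mock and lower in pot1b Zeocin than in pot1b mock.

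Of 17 tested genes of suberin and cutin synthesis, 5 were higher and 0 lower in pot1b under mock, against 7.25% of all genes called higher, at a median of 0.10 beside 0.01 for all genes, among them the acyltransferases GPAT4 (0.53) and GPAT8 (0.60), the hydroxylase CYP86A2 (0.59) and the reductase FAR5 (2.02, SE 0.45). Under Zeocin 3 were higher and 0 lower in pot1b, against 6.55% of all genes called higher, at a median of 0.24 beside 0.01: the suberin hydroxylase CYP86A1 (0.81), FAR5 (1.83) and CYP86A2 (0.41). Summed over each group, FAR5 held 28 counts in pot1b Zeocin, 10 in WT Zeocin, 32 in pot1b mock and 9 in WT mock. It passed the filter only through its pot1b libraries. A rise of FAR5 in pot1b in at least 1 treatment was therefore fixed by the filter, and its differences are a description. FAR1 and CYP86A2 fell with Zeocin in pot1b (-0.73 and -0.48) and in WT (-0.49 and -0.31), and each overlaps other genes on the opposite strand, FAR1 a protein-coding gene over 1310 bp and CYP86A2 a noncoding gene over 782 bp. Of 15 genes of fatty acid supply, 0 were higher and 2 lower in pot1b under mock, against 13.1% of all genes called in either direction, at a median of -0.03. ACC1, which makes the malonyl-CoA for elongation, was lower in pot1b under Zeocin (-0.24) and under mock (-0.38) and fell with Zeocin in WT (-0.34). FATB was lower in pot1b under mock (-0.39), and BCCP1 rose with Zeocin in WT (0.41). Of 10 sphingolipid genes, 1 was higher and 1 lower in pot1b under mock, and 1 was higher and 2 lower under Zeocin, against 13.1% of all genes called under mock and 11.1% under Zeocin. The ceramide synthase gene LOH3 was higher in pot1b under mock (1.04, SE 0.18) and LOH2 rose with Zeocin in pot1b (0.53) and in WT (0.46) and was higher in pot1b under Zeocin (0.42). LCB1, of the first step of sphingolipid synthesis, was lower in pot1b under mock (-0.28), and its partner LCB2A (-0.29) and the hydroxylase FAH1 (-0.35) were lower in pot1b under Zeocin. Of 9 tested regulators, 1 was higher and 1 lower in pot1b under mock, again against 13.1%, at a median of -0.10. DESeq2 called 2 higher and 1 lower there. MYB96, whose motif was searched above, was not called by edgeR. It lay at 37.7 to 42.5 CPM in pot1b mock and 24.6 to 28.8 CPM in WT mock. With Zeocin its ranges overlapped, at 26.2 to 36.2 CPM in pot1b and 20.5 to 37.3 CPM in WT. DEWAX, a repressor of wax genes, was lower in pot1b under mock (-0.46) and MYB30, an activator of very-long-chain synthesis, was higher (0.39), while MYB16, a cuticle regulator, fell with Zeocin in pot1b (-0.61). Each of these genes except MYB96 was called by edgeR, with adjusted p-values from 3.16e-07 to 0.0491. The calls of MYB16 and LCB1 were lost in 17 and 10 of the alternatives. In pot1b under Zeocin the calls of LCB2A and LOH2 were lost in 6 each, that of ACC1 in 5 and that of FAH1 in 3. Those of LCB2A, LOH2, FAH1 and FAR5 in that contrast were lost without both replicate 3 libraries of pot1b, and DESeq2 gave FAR5 no adjusted p in either genotype contrast. The calls with Zeocin in WT were lost in 5 of the alternatives for LOH2, 4 for BCCP1 and 3 for CYP86A2, and the call of MYB30 under mock in 3.

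**Figure D5:**
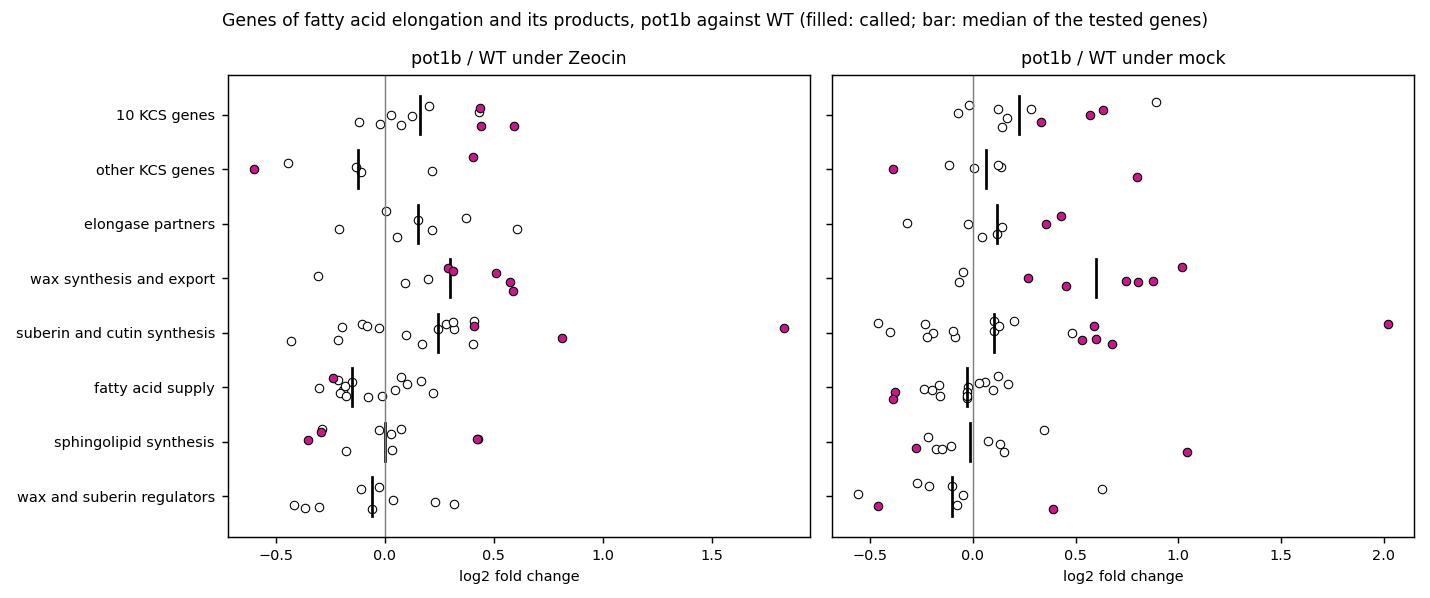
Log2 change of the tested genes of the 10 KCS genes, the other KCS genes and each pathway list for pot1b against WT, under Zeocin and under mock. Each point is a gene, filled where called, and the vertical bar is the median of the list. Of the wax genes, 6 of 8 lie on the positive side as called genes for pot1b under mock.

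Markers of the tissues that make wax and suberin were read in all groups. The summed level of 6 epidermis markers was 93.8 to 101 CPM in pot1b Zeocin and 98.5 to 111 CPM in WT Zeocin, and 90.1 to 94.9 CPM in pot1b mock and 106 to 114 CPM in WT mock. Under mock 4 of these 6 were lower in pot1b, PDF1, GL2, ATML1 and FAMA, against 13.1% of all genes called in either direction. DESeq2 called 2 of them and limma-voom 3, and the calls of FAMA and ATML1 were lost in 12 and 9 of the alternatives. PDF1 rose with Zeocin in pot1b (0.64), a call lost in 11 of the alternatives. The 4 endodermis markers summed to 13.9 to 19.3 CPM in pot1b Zeocin, 18.5 to 20.3 CPM in WT Zeocin, 15.6 to 18.4 CPM in pot1b mock and 17.4 to 19.1 CPM in WT mock, with SCR lower in pot1b under Zeocin and ESB1 under mock, calls lost in 2 and 7 of the alternatives. The 4 leaf markers summed to 8381 to 8757 CPM in pot1b Zeocin and 7127 to 8454 CPM in WT Zeocin. Under mock they summed to 9291 to 10410 CPM in pot1b mock and 7644 to 8115 CPM in WT mock, and 3 of the 4 were higher in pot1b. With Zeocin in pot1b, RBCS1A (-0.35) and RCA (-0.33) fell, in the contrast in which KCS6 and KCS10 were lower. These calls were lost in 5 and 4 of the alternatives, in both cases also without both replicate 3 libraries of pot1b. The 4 root markers summed to 643 to 718 CPM in pot1b Zeocin and 380 to 398 CPM in WT Zeocin, and to 693 to 731 CPM in pot1b mock and 404 to 423 CPM in WT mock, with PYK10 and the phosphate transporter gene PHT1-1 higher in pot1b in both treatments. Most of the root sum was PYK10, at 649.5 ± 35.5 CPM in pot1b Zeocin and 366 ± 11.9 CPM in WT Zeocin (n = 3 each). ADF11 was not called, at 1.49 CPM in pot1b Zeocin and 1.64 CPM in WT Zeocin, and at 1.47 CPM in pot1b mock and 1.69 CPM in WT mock. SMB did not pass the filter. PYK10 and GL2 overlap other genes, and ESB1 overlaps a protein-coding gene on the opposite strand over 1772 bp. Markers thus differed in the same contrasts as KCS1, KCS6, KCS8, KCS10 and KCS20, in both directions. Under mock, KCS1, KCS8, KCS20 and the called leaf and root markers were higher in pot1b. The called epidermis and endodermis markers were lower there. Under Zeocin, the same KCS genes, PYK10 and PHT1-1 were higher in pot1b and SCR was lower. With Zeocin in pot1b, KCS6, KCS10, RBCS1A and RCA fell and PDF1 rose. The part of the markers in the KCS differences was not tested.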

How the data were processed

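The authors, per the submitters' processing notes, used Trim Galore, HISAT2 with TAIR10, and featureCounts, and the deposited values are raw read counts per gene. The notes also name limma. Versions and the strand setting of counting are not given in the sources used here. Per the labels' protocols, libraries were made from total RNA with a stranded kit after removal of ribosomal RNA. The labels do not say whether replicates came from separate cultures, so p-values measure only how these samples vary, and that variation may be technical.

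Counts were fitted with edgeR 4.0.16 in R 4.3.3. The filter filterByExpr at a minimum count of 10 kept 19596 of 34262 features and removed 14666. TMM factors scaled the libraries, and 1 robust quasi-likelihood model of 4 groups was fitted to 12 libraries, with 8 residual degrees of freedom. There were 5 contrasts, and edgeR's p-values were adjusted by the Benjamini-Hochberg method across all 19596 genes. Alternatives were RLE scaling, nuclear genes alone, no filter, a minimum count of 30, DESeq2 1.42.0, limma-voom (limma 3.58.1), a replicate block, a fit of the groups compared alone, and each library left out in turn.

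The 10 genes and all lists (7 pathway lists of 90 genes, 4 marker lists of 18) were chosen with earlier results of these data known. The counts of called genes per list are therefore a description, not a test of the list. Of each list the text names up to 4 called genes per contrast with the smallest adjusted p, and those called in several contrasts. For each of the 10 genes called in any contrast it names the 2 genes with the highest correlation. KCS11 and KCS13 are named for their place in the order of levels or their identity, and MYB96 because its motif was searched. Gene models, overlaps and upstream windows of 250 bases came from RefSeq's TAIR10.1, matched by locus ID, and that name differs from the build of the counts.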

Additional observations from a re-analysis of the deposited data

Results flagged for a closer look

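The Zeocin effect on CER3 and on KCS12 differed between the genotypes by edgeR's interaction test, 2 of the 72 tested genes of the pathway lists, against 0.750% of all genes. For CER3 the effect in pot1b minus that in WT was -0.55 on the log2 scale (SE 0.11, edgeR adjusted p = 0.0122). CER3 fell with Zeocin in pot1b by 0.56 and averaged 22.5 ± 0.505 CPM in WT Zeocin and 22.7 ± 0.240 CPM in WT mock (n = 3 each). The adjusted p lay at 0.0535 without replicate 1 of WT mock and at 0.0582 without replicate 1 of pot1b Zeocin. For KCS12 the difference was -0.485 (SE 0.10, edgeR adjusted p = 0.0227), and the call was lost in 7 of the alternatives, with adjusted p-values of 0.0526 to 0.161. Zeocin in pot1b, pot1b under mock and the interaction use the same pot1b mock libraries.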

How the results depend on the processing

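No called value changed sign under any alternative run. For the 10 KCS genes with 1 library left out, 578 values kept their side of the threshold, the uncalled ones among them moving by less than 1 SE. How far called values moved was not counted. Of the rest, 12 lost a call, 1 gained a call and 9 uncalled values moved by over 1 SE. Under other settings these numbers were 423, 3, 1 and 0. With 1 library left out, the 10 genes gave 1 to 2 calls for Zeocin in WT, 2 to 3 for Zeocin in pot1b, 2 to 3 for pot1b under mock, 3 for pot1b under Zeocin and 0 for the interaction.

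With 1 library left out, called genes of the whole table numbered 707 to 1498 for Zeocin in WT (1174 with all libraries), 919 to 2033 for Zeocin in pot1b (1313), 1595 to 3736 for pot1b under mock (2562), 1239 to 2304 for pot1b under Zeocin (2168) and 56 to 437 for the interaction (147). In the same order, called genes of the pathway lists numbered 3 to 8 (6 with all libraries), 9 to 23 (14), 15 to 26 (21), 8 to 17 (14) and 0 to 4 (2).

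In a fit of the groups compared alone, Zeocin in WT gave 709 genes and 3 pathway genes, Zeocin in pot1b gave 22 pathway genes, pot1b under mock gave 3981 genes, and pot1b under Zeocin gave 928 genes and 6 pathway genes. Leaving out replicate 3 of pot1b in both treatments, an alternative chosen after seeing the data, gave for Zeocin in pot1b 742 genes, 1 of the 10 KCS genes (KCS17) and 9 pathway genes, for pot1b under Zeocin 1294 genes and 7 pathway genes, and for the interaction 65 genes and 1 pathway gene. The cause was not tested.

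The labels do not say that a replicate number marks a shared batch. Of the correlations between libraries of different groups, 12 of 18 with the same number were over 0.1 (-0.022 to 0.416, median 0.190), against 4 of 36 with different numbers (median -0.084), and 9 of 12 libraries went best with their own number. This is a hint of shared numbers from the data, but not every pair shows it, so the numbers were not used as pairs. The replicate block gave 379 genes for the interaction and 10 pathway genes for Zeocin in WT, and gave the same number of calls among the 10 KCS genes in every contrast. Low counts limit KCS2, KCS17 under mock and FAR5 in WT.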
